A study of Rattus norvegicus with 16 samples.

Results

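The tumor necrosis factor (TNF) superfamily comprises signaling proteins, the ligands, and the receptors they bind, which carry the official symbols Tnfsf and Tnfrsf followed by a number. Its members were examined in the lungs and adipose tissue of rats with allergic inflammation induced by house dust mite (HDM) and of control rats. A gene was included when the RefSeq transcript of its array probe carries a symbol of this form. Of the 30 rat symbols of this form in the gene table, 24 had a probe on the arrays, 9 ligands and 15 receptors, out of 16678 symbols measured. No probe was matched to Tnfrsf10b, Tnfrsf13c, Tnfrsf22, Tnfrsf26, Tnfsf13b and Tnfsf18, so these 6 genes were not analysed here. Members of the superfamily with older names, such as Tnf, Ltb and Fas, are treated as a separate list.

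All animals were male Brown Norway rats, 7 weeks old. In both groups exposure ran in 2 phases, sensitization under the skin with Al(OH)3 as adjuvant (3 weeks, 1 injection a week) and intranasal challenge (3 weeks, 3 doses a week). For the 5 HDM rats each injection held 45 µg of HDM and each intranasal dose 120 µg, and for the 3 control rats saline took the place of HDM in both phases, so the adjuvant was common to all animals. RNA from lung and adipose tissue of each rat was hybridized to 1-color Agilent arrays, 1 array per rat and tissue and 16 arrays in all. The adipose depot is not given in the sources used here. Values are log2 intensities relative to the 75th percentile of the array, so a value of 0 is the signal that 75% of the probes do not exceed.

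TNF superfamily ligands are mostly membrane-anchored and can be shed, and they act by clustering their receptors. Receptors with a death domain (Tnfrsf1a, Tnfrsf21 and Tnfrsf25) can trigger cell death, and most others recruit TRAF adaptors that activate the transcription factor NF-κB and support the survival and activation of lymphocytes and myeloid cells. In allergic airways, members such as Tnfsf4, a costimulator of T helper 2 cells, and Tnfsf15 are known as amplifiers of the type 2 response. Many members form ligand and receptor pairs, and some lie side by side in the genome: in the GRCr8 assembly of RefSeq no protein-coding gene lies between Tnfrsf1b and Tnfrsf8, between Tnfrsf4 and Tnfrsf18, between Tnfsf15 and Tnfsf8, or between Tnfsf13 and Tnfsf12.

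The tissues bore the markers of their labels. All 10 lung epithelium markers were well above background on all 8 lung arrays, and all 10 adipocyte markers on all 8 adipose arrays, which means that the scanner software marked the spots as well above background. Between 62.1% and 68.8% of all probes were well above background on the lung arrays and between 50.9% and 60.2% on the adipose arrays. Some adipose arrays stood apart. The mean level of 11 epididymis and testis markers was 5.29 in control rat 1 and 5.02 in HDM rat 1, against −5.63 to −3.95 in the other 6 rats, and the adipose array of HDM rat 2 held 1224 outlier spots against 355 to 444 on the others. The differences of the adipose members described in full are therefore also given without control rat 1 and HDM rat 1. In whole tissue, a change in the number of cells of a type and a change in RNA per cell cannot be told apart.

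In the lungs, 6 of 9 ligands and 13 of 15 receptors were well above background on all 8 arrays. Tnfsf4, Tnfsf8, Tnfsf11 and the receptor Tnfrsf19 were well above background on no lung array, and Tnfrsf13b on 7. In adipose tissue, Tnfsf9, Tnfsf12 and Tnfsf13 and 9 receptors were well above background on all 8 arrays. Tnfsf4, Tnfsf11 and Tnfrsf19 were well above background on none of the 16 arrays, and no direction is read from their values.

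HDM and control rats were compared first in the lungs, the challenged organ. The receptor Tnfrsf11a rose, and it was the only member that passed the threshold of an adjusted p below 0.05 and a fold change above 1.5. The receptors Tnfrsf18 and Tnfrsf1b and the ligands Tnfsf14 and Tnfsf10 were above the highest control rat in all 5 HDM rats, and the receptor Tnfrsf12a was below the lowest control rat in all of them, but none of these 5 passed the threshold. Of all probes, 0.855% were called and 0.482% were called higher. At an unadjusted p below 0.05 in limma there were 7 of 24 members, against 10.2% of all probes, and 5 of 24 were past a fold change of 1.5, against 9.47%. Counted without a test, the groups did not overlap for 8 members, against 9.61% of all probes with complete values. Of these, HDM rats were higher for 6, against 4.65% of probes, and lower for 2, against 4.97%. The shares are larger with 1 probe per symbol, as for the members. Of 16678 symbols, 985 were apart and higher and 1198 apart and lower. At an unadjusted p below 0.05 in limma, 1052 symbols were higher and 1058 lower.

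Tnfrsf11a, known as RANK, is the receptor through which Tnfsf11 drives osteoclast formation and dendritic cell survival. Its level in the lungs was −3.82, −3.40 and −3.36 in control rats 1 to 3 and −2.54, −2.60, −2.53, −2.29 and −2.87 in HDM rats 1 to 5. Every HDM rat lay above every control rat, and HDM rat 5 lay nearest to the controls. The log2 fold change was 0.96 ± 0.17 (SE), a 1.95-fold increase that reached an adjusted p of 0.0496 in limma. The two-sided exact permutation test gave p = 0.0179, the smallest value that 5 against 3 rats allow. Tnfrsf11a was not called without any 1 of the 8 rats: the log2 fold change lay between 0.82 and 1.05 with adjusted p between 0.0595 and 0.178 in limma. Leaving out a rat lowered the calls over all probes too, from 390 to between 100 and 333. The lung array of HDM rat 5 lay in the slide row of the 3 control arrays and those of HDM rats 1 to 4 in the other row. With the row as a block, which compares HDM rat 5 with the controls, the log2 fold change was 0.66 (adjusted p = 0.639 in limma). Scaling decided the call too: the adjusted p was 0.0745 when arrays were scaled to their median and 0.113 when scaled to Gapdh and Hprt1, and with normexp background correction and quantile normalization the log2 fold change was 0.44, below the fold threshold.

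The ligand of this receptor, Tnfsf11, never rose well above background. The soluble decoy receptor that captures this ligand, Tnfrsf11b (osteoprotegerin), was measured between −0.17 and −0.12 in the control lungs and between −0.46 and −0.30 in the HDM lungs. These groups did not overlap, but the log2 difference of −0.25 ± 0.09 (SE) had an adjusted p of 0.376 in limma and the fold change of 1.19 was below the threshold.

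Tnfrsf18, known as GITR, is a costimulatory receptor abundant on regulatory T cells. Its level in the lungs was 0.43, 0.35 and 0.03 in control rats 1 to 3 and 1.09, 0.99, 1.39, 0.91 and 0.77 in HDM rats 1 to 5. The groups did not overlap, and the log2 difference was 0.76 ± 0.17 (SE, fold change 1.7) with an adjusted p of 0.101 in limma (exact permutation p = 0.0179). With the slide row as a block it was 0.50 (adjusted p = 0.773 in limma). Its neighbor Tnfrsf4, the receptor of Tnfsf4 on activated T cells, differed by 0.02 ± 0.14 (SE) on the log2 scale, with overlapping groups.

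Tnfsf14, known as LIGHT, binds Tnfrsf14 and the lymphotoxin β receptor and acts on T cells and airway remodeling. Its level in the lungs was −2.98, −3.29 and −3.23 in control rats 1 to 3 and −1.96, −2.46, −1.80, −2.28 and −2.70 in HDM rats 1 to 5. All HDM values lay above the control values, HDM rat 5 again being the lowest of its group. The log2 difference was 0.93 ± 0.21 (SE, fold change 1.90), with an adjusted p of 0.123 in limma (exact permutation p = 0.0179). It was 0.47 (adjusted p = 0.847 in limma) with the slide row as a block and 0.46 (adjusted p = 0.0507 in limma) with normexp and quantile normalization. Its receptor Tnfrsf14, a broadly expressed lymphocyte receptor, overlapped between the groups with a log2 difference of −0.05 ± 0.17 (SE).

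Tnfsf10, known as TRAIL, induces apoptosis through death receptors and is also bound by Tnfrsf11b. Its level in the lungs was −2.79, −2.37 and −3.02 in control rats 1 to 3 and −2.09, −2.25, −2.08, −2.08 and −2.12 in HDM rats 1 to 5. HDM rats were all higher and more alike than control rats. The log2 difference was 0.60 ± 0.15 (SE, fold change 1.52), with an adjusted p of 0.162 in limma (exact permutation p = 0.0179). With the slide row as a block it was 0.61 (adjusted p = 0.709 in limma).

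Both TNF receptors were well above background on all 16 arrays. Tnfrsf1b, the receptor of TNF found mainly on leukocytes and endothelium, stood at 1.90, 1.63 and 1.41 in control rats 1 to 3 and at 2.30, 2.02, 1.99, 2.21 and 2.12 in HDM rats 1 to 5. The groups were apart by a small margin, with a log2 difference of 0.48 ± 0.14 (SE, fold change 1.4) and an adjusted p of 0.230 in limma (exact permutation p = 0.0179). With the slide row as a block this difference was 0.47 (adjusted p = 0.782 in limma). Tnfrsf1a, the widely expressed death domain receptor of TNF, ranged from 2.61 to 2.87 in control and from 2.88 to 3.13 in HDM lungs, a log2 difference of 0.23 ± 0.11 (SE) with an adjusted p of 0.554 in limma.

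Tnfrsf12a, known as Fn14, is an injury-inducible receptor of Tnfsf12 on epithelial and mesenchymal cells. Its level in the lungs was 1.02, 0.70 and 0.70 in control rats 1 to 3 and 0.13, 0.13, 0.38, −0.01 and 0.17 in HDM rats 1 to 5. It was the member with the lowest log2 difference, −0.64 ± 0.13 (SE, fold change 1.56), with all HDM rats below all control rats and an adjusted p of 0.0809 in limma (exact permutation p = 0.0179). With the slide row as a block this difference was −0.63 (adjusted p = 0.621 in limma). The probe of Tnfrsf12a is printed in 10 spots per array, whereas every other member has 1 spot. Its ligand Tnfsf12, known as TWEAK, lay between 4.73 and 4.87 in all 8 lungs, with a log2 difference of 0.02 ± 0.09 (SE).

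**Figure D1:**
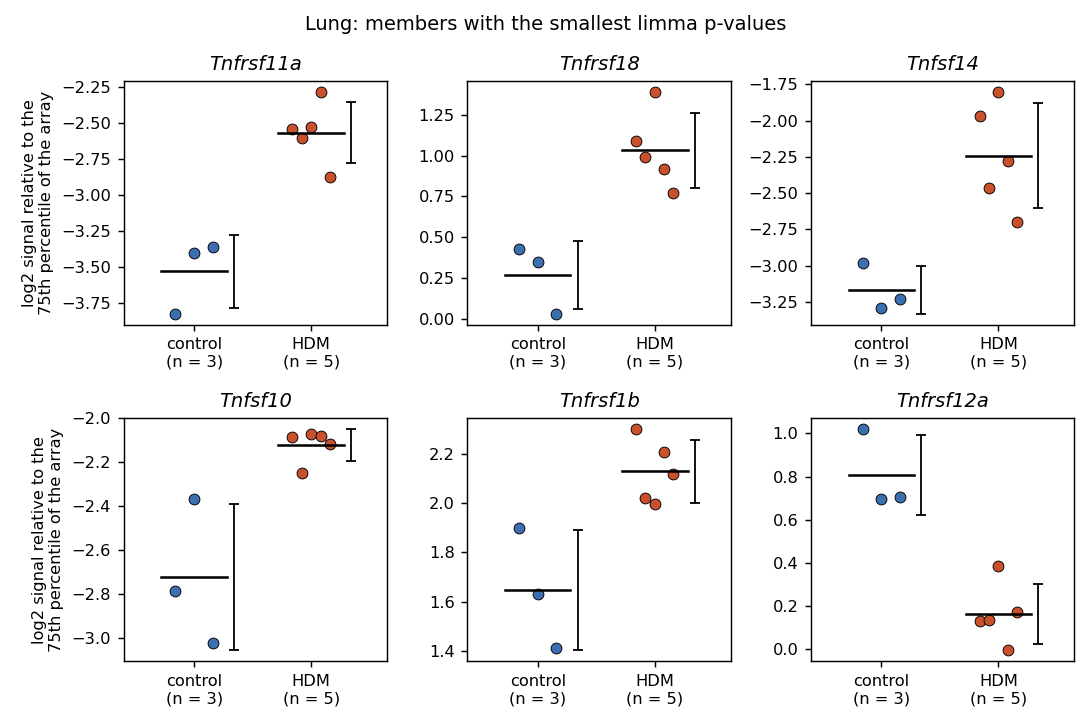
Level of 6 members in the lungs, as log2 signal relative to the 75th percentile of the array (vertical axis, a scale of its own for each gene), in 3 control and 5 HDM rats. Points are rats, the horizontal line is the mean and the bar beside it is ± 1 SD. The 2 groups do not overlap for any of the 6 genes, and HDM rats are lower for Tnfrsf12a only.

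The other costimulatory and B cell members overlapped between the groups in the lungs. Tnfrsf8 and Tnfrsf9, receptors of activated T cells, differed by 0.05 ± 0.11 (SE) and −0.07 ± 0.13 (SE) on the log2 scale, and the ligand Tnfsf9 by −0.19 ± 0.18 (SE). Tnfsf13, a survival factor of plasma cells, differed by 0.24 ± 0.12 (SE), and its receptor Tnfrsf17 by −0.23 ± 0.38 (SE). Tnfsf15 and its receptor Tnfrsf25 differed by −0.07 ± 0.14 (SE) and −0.22 ± 0.20 (SE), and the death domain receptor Tnfrsf21 by 0.11 ± 0.14 (SE). For these members the adjusted p in limma was 0.601 or higher.

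Which lung members were called depended on the setting. With arrays scaled to their median, Tnfrsf12a was the 1 member called (adjusted p = 0.0370 in limma), and with normexp and quantile normalization it was Tnfrsf18 (adjusted p = 0.0207 in limma). When only probes well above background on every array of at least 1 group were tested, Tnfrsf11a, Tnfrsf12a, Tnfrsf18 and Tnfsf14 were called, 4 members against 2.65% of the probes tested. When the adjustment covered only probes with a fold change above 1.5, Tnfsf10 was called as well, 5 members in all, which are the 5 members past that fold, against 30.8% of the probes tested. That filter uses the same HDM and control values as the test, so the adjusted p of this setting does not hold its stated error rate.

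Over all 24 members, the medians of ligands and receptors lay close together in the lungs. The median log2 difference between HDM and control rats was 0.02 over the 9 ligands and 0.02 over the 15 receptors, and −0.01 over all symbols. For the ligands the log2 differences ranged from −0.37 to 0.93, and for the receptors from −0.64 to 0.96. Taken for each HDM rat against the control mean, the ligand median minus the receptor median was 0.25, −0.09, −0.14, 0.24 and −0.02 on the log2 scale, above 0 in some rats and below 0 in others. These medians include members well above background on no lung array. Over the 20 members well above background on every array of at least 1 group, the ligand median minus the receptor median was 0.14, against −0.0019 over all 24.

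**Figure D2:**
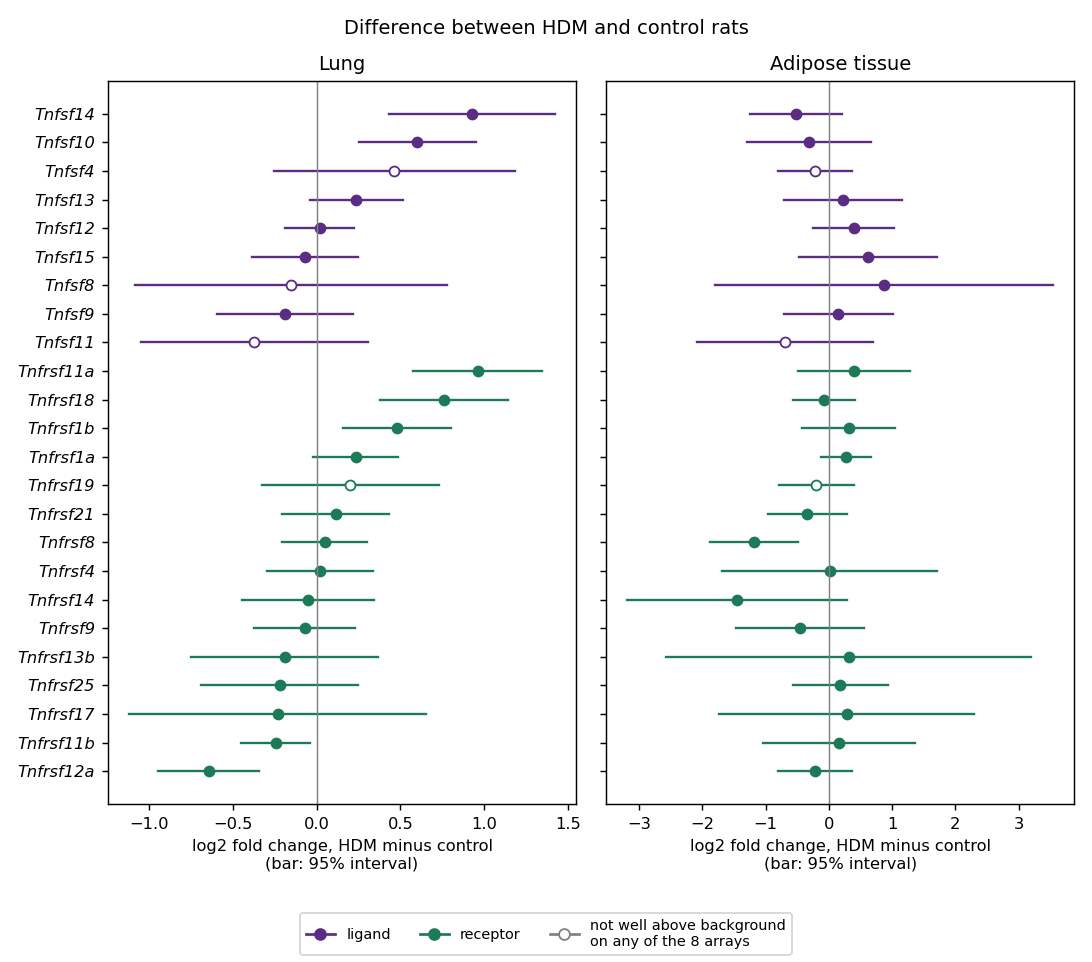
Difference between HDM and control rats of each member in lung (left) and adipose tissue (right), as log2 fold change with its 95% interval from limma; the 2 panels have different horizontal scales. Ligands are purple and receptors green, ordered by their lung value, and open points mark genes well above background on none of the 8 arrays. Most adipose intervals are wider than the lung intervals, and in adipose tissue only that of Tnfrsf8 lies wholly below 0.

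Markers of granulocytes moved with the HDM group in the lungs. The mean level of 10 neutrophil markers ranged from −2.15 to −2.0 in control and from 0.01 to 0.45 in HDM lungs, and 6 of the 10 were called higher. The mean level of 6 eosinophil markers ranged from −4.67 to −3.99 in control and from −3.51 to −2.47 in HDM lungs, with 1 called higher. The T cell markers ranged from −2.12 to −2.03 in control and from −2.03 to −1.86 in HDM lungs, with 0 of 14 called and 1 of 14 at an unadjusted p below 0.05 in limma. Of these lists, 1 neutrophil, 1 eosinophil and 1 T cell marker were well above background on no lung array. The lung epithelium markers ranged from 6.37 to 6.44 in control and from 6.12 to 6.23 in HDM lungs, with 0 of 10 called and 3 lower at an unadjusted p below 0.05 in limma. The part of these cells in the member values was not tested.

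The partners of the family were examined through lists of known genes. Of 7 other ligands in the lungs, none was called and 1 was higher at an unadjusted p below 0.05 in limma. This was Ltb, a lymphotoxin subunit that organizes lymphoid tissue, which differed by 0.58 ± 0.10 (SE) on the log2 scale with an adjusted p of 0.0441 in limma, just short of the fold threshold. Of 7 other receptors, the death receptor Fas rose by 0.72 ± 0.12 (SE) with an adjusted p of 0.0438 in limma, and 5 of 7 had positive differences. At an unadjusted p below 0.05 in limma, 3 of these 7 were higher and 0 lower. Of all 16678 symbols in the lungs, 1052 were higher and 1058 lower at that level. The medians of these lists were 0.02 and 0.12 on the log2 scale.

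Downstream of the receptors, 1 of 21 adaptor and death domain genes was called: Birc3, an inhibitor of apoptosis and a target of NF-κB, rose by 0.74 ± 0.12 (SE) with an adjusted p of 0.0352 in limma. At an unadjusted p below 0.05 in limma, 2 of the 21 were higher and 3 lower. Of 7 kinases and subunits of the NF-κB pathway none was called and 1 was lower at an unadjusted p below 0.05 in limma, the kinase Ikbkb, which differed by −0.26 ± 0.09 (SE) with an adjusted p of 0.363 in limma. Of 20 genes induced by NF-κB, 1 was called: the cytokine Il1b rose by 1.62 ± 0.26 (SE) with an adjusted p of 0.0373 in limma. At an unadjusted p below 0.05 in limma, 7 of these 20 genes were higher and 1 lower. The median over these 20 genes was 0.21, and 15 had positive log2 differences, against a median of −0.01 over all symbols.

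In adipose tissue no member was called, and 0% of all probes were. At an unadjusted p below 0.05 in limma, 1 of 24 members differed, Tnfrsf8, against 9.90% of all probes and 8.88% with lower values in HDM rats, and it was also the only member whose groups did not overlap, against 6.26% of probes with complete values and 4.72% with lower values. The spread was larger than in the lungs. Of the members 5 were past a fold change of 1.5, as were 24.0% of all adipose probes. The median log2 difference over all probes was −0.15, which became 0.14 when arrays were scaled to their median. The differences below are best read against that shift.

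Tnfrsf8, known as CD30, is a receptor of activated lymphocytes. Its level in adipose tissue was −2.85, −3.34 and −3.51 in control rats 1 to 3 and −5.09, −3.96, −4.35, −4.68 and −4.03 in HDM rats 1 to 5. All HDM rats lay below all control rats, and it was well above background in 3 control and 2 HDM rats. The log2 difference was −1.19 ± 0.30 (SE), with an adjusted p of 0.322 in limma (exact permutation p = 0.0179). Without control rat 1 and HDM rat 1 it was −0.83 (adjusted p = 0.602 in limma), and with normexp and quantile normalization −0.20.

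Tnfrsf14 had the lowest difference in adipose tissue but overlapped. Its level was −1.91, −3.52 and −1.88 in control rats 1 to 3 and −1.62, −4.68, −4.48, −4.29 and −4.35 in HDM rats 1 to 5. HDM rat 1 was the highest of all 8 rats and the other 4 HDM rats were lower than every control rat. It was well above background in 3 control rats but in only 1 HDM rat, so the low HDM values lie near background and the size of the difference is not well measured. The log2 difference was −1.45 ± 0.75 (SE), with an adjusted p of 0.583 in limma (exact permutation p = 0.143). It was −1.75 without control rat 1 and HDM rat 1 (adjusted p = 0.552 in limma) and −0.26 with normexp and quantile normalization.

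Tnfsf14, the ligand of this receptor, was well above background on only 1 array of each group. It stood at −3.63, −4.27 and −4.03 in control rats 1 to 3 and at −4.85, −5.11, −3.87, −4.48 and −4.12 in HDM rats 1 to 5. The groups overlapped, with a log2 difference of −0.51 ± 0.32 (SE, adjusted p = 0.656 in limma). It was −0.25 without control rat 1 and HDM rat 1, −0.22 with arrays scaled to their median, −0.15 with the slide row as a block, −0.02 with normexp and quantile normalization and −0.0075 with quantile normalization alone.

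Among members well above background on all adipose arrays, Tnfsf12 had the highest difference and Tnfrsf9 the lowest. Tnfsf12 stood at 4.04, 5.12 and 4.61 in control rats 1 to 3 and at 4.53, 4.88, 5.25, 5.12 and 5.13 in HDM rats 1 to 5, a log2 difference of 0.39 ± 0.28 (SE, adjusted p = 0.711 in limma). This was 0.12 without control rat 1, 0.66 without control rat 2 and 0.23 without control rat 1 and HDM rat 1. Tnfrsf9 stood at −1.29, −1.84 and −2.30 in control rats 1 to 3 and at −1.12, −2.53, −2.90, −2.01 and −2.76 in HDM rats 1 to 5, a log2 difference of −0.45 ± 0.44 (SE, adjusted p = 0.813 in limma). This was −0.48 without control rat 1 and HDM rat 1, −0.19 without control rat 1 alone and −0.74 without HDM rat 1 alone. For both genes the groups overlapped, and the 2 rats with high epididymis and testis markers had low Tnfsf12 and high Tnfrsf9 within their groups.

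Tnfrsf1a stood at 3.16, 3.50 and 3.34 in the adipose tissue of control rats 1 to 3 and at 3.39, 3.67, 3.88, 3.61 and 3.51 in HDM rats 1 to 5. All but HDM rat 1 were above the control rats, with a log2 difference of 0.28 ± 0.17 (SE, adjusted p = 0.656 in limma), which was 0.25 without control rat 1 and HDM rat 1. Tnfsf15, which was well above background on 2 control and 4 HDM arrays, stood at −4.80, −2.90 and −3.59 in control rats 1 to 3 and at −3.73, −3.72, −2.54, −2.72 and −3.00 in HDM rats 1 to 5. Its groups overlapped, with a log2 difference of 0.62 ± 0.47 (SE, adjusted p = 0.735 in limma), which was 0.25 without control rat 1 and HDM rat 1, 0.10 without control rat 1 alone and 1.05 without control rat 2.

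**Figure D3:**
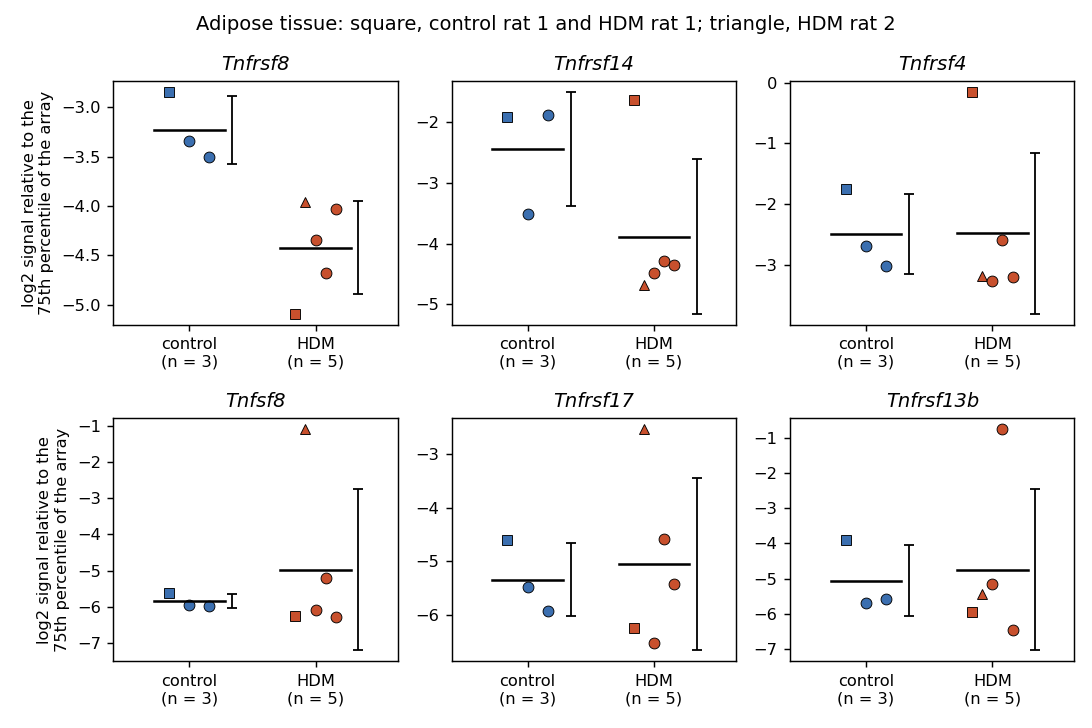
Level of 6 members in adipose tissue, as log2 signal relative to the 75th percentile of the array (vertical axis, a scale of its own for each gene), in 3 control and 5 HDM rats. Squares are control rat 1 and HDM rat 1, triangles HDM rat 2 and circles the other rats; the line is the mean and the bar ± 1 SD. Single rats stand far from their group for Tnfrsf14, Tnfrsf4, Tnfsf8, Tnfrsf17 and Tnfrsf13b, and only Tnfrsf8 has groups that do not overlap.

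For several B and T cell members in adipose tissue 1 rat set the spread. Tnfsf8 was −1.08 in HDM rat 2 and between −6.30 and −5.20 in the other 4 HDM rats, and Tnfrsf17 was −2.53 in HDM rat 2 and between −6.51 and −4.58 in the others. Tnfrsf13b, a receptor of B cells, was −0.74 in HDM rat 4 and between −6.46 and −5.14 in the other HDM rats. Each of these genes was well above background on that 1 adipose array only. The B and plasma cell markers ranged from −3.44 to −3.24 in control and from −3.47 to −2.84 in HDM adipose tissue, where HDM rats 4, 2 and 5 had −2.84, −3.01 and −3.02, and 2 of the 7 were well above background on no adipose array. The part of these cells in the values was not tested.

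The median log2 difference in adipose tissue was 0.15 over the 9 ligands and 0.01 over the 15 receptors, and −0.05 over all symbols. For each HDM rat, the ligand median minus the receptor median was −0.05, 0.33, 0.47, 0.26 and −0.01 on the log2 scale. The difference between the medians was 0.14. The values of the HDM rats had an SD of 0.23 (n = 5), which leaves out the spread of the control rats and is not the error of this difference. The direction of the difference was not stable. The difference was 0.41 without control rat 3 or without HDM rat 1, −0.0027 without control rat 1, −0.021 without HDM rat 2, −0.083 without HDM rat 3, −0.011 with the slide row as a block and 0.084 without control rat 1 and HDM rat 1. Over the 15 members well above background on every array of at least 1 group, it was 0.27.

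No gene of the pathway lists was called in adipose tissue. The smallest p of each list belonged to Ltb among other ligands (log2 difference 0.27 ± 0.19 SE, adjusted p = 0.701 in limma), Ngfr among other receptors (−0.92 ± 0.23 SE, adjusted p = 0.320), Traf1 among adaptors (0.71 ± 0.36 SE, adjusted p = 0.576), Rela among kinases and subunits (0.40 ± 0.25 SE, adjusted p = 0.659) and Bcl3 among NF-κB-induced genes (1.10 ± 0.31 SE, adjusted p = 0.358). Of the 20 NF-κB-induced genes 6 were higher and 1 lower at an unadjusted p below 0.05 in limma, with a median of 0.17. Of all 16678 symbols in adipose tissue, 230 were higher and 1095 lower at that level. Of the other receptors 2 were lower at that level, and of the other ligands, adaptors, and kinases and subunits 0 were. Neutrophil markers ranged from −3.33 to −2.87 in control and from −2.71 to −1.99 in HDM adipose tissue, with 0 of 10 called, 3 higher at an unadjusted p below 0.05 in limma and 2 of the 10 well above background on no adipose array.

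The HDM effect was then compared between the tissues within rats, as the lung value minus the adipose value of each rat. No member passed an adjusted p of 0.05 in limma, which 0.00219% of all probes did. At an unadjusted p below 0.05 there were 3 of 24 members, against 7.74% of all probes. Tnfsf14 was higher by 1.44 ± 0.34 (SE) in the lung than in the adipose contrast on the log2 scale (adjusted p = 0.401), Tnfrsf8 by 1.24 ± 0.32 (adjusted p = 0.462) and Tnfrsf18 by 0.84 ± 0.31 (adjusted p = 0.598). For Tnfrsf11a the difference between the contrasts was 0.56 ± 0.41 (SE), with a 95% interval from −0.37 to 1.5 and an adjusted p of 0.748 in limma, so its lung call is not shown to differ from adipose tissue. The value of Tnfsf14 rests in part on adipose values near background, well above it on 2 of 8 arrays. That of Tnfrsf8 comes mostly from adipose tissue (−1.19, against 0.05 in lung), where 2 of 5 HDM arrays were well above background. The median of this difference between the contrasts over all probes was 0.15 on the log2 scale.

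The promoters of the members were searched for the NF-κB site, written as the kappaB consensus and read on both strands, in the window from 250 bases before to 50 bases after the start site in RefSeq (GRCr8). Promoters were matched for 17 of the 24 members, and 2 of these (11.8%) held a match, against 7.51% of 33469 promoters. The matches belong to Tnfsf14 and Tnfrsf8, and a relation between them and the values of these genes was not tested. Each window of 30 bases is read 5′ to 3′ on the minus strand with the match in capitals. The window of Tnfsf14 is chr9:2160247-2160276, with the match beginning 180 bases before the start site, and that of Tnfrsf8 is chr5:162451768-162451797, with the match beginning 167 bases before it.
Tnfsf14: acatcgagcaGGGGCTTCCCcatccatctc
Tnfrsf8: tcaaaacgaaGGGGAGCCCCctgagtgcgt
In Tnfrsf8 another match overlaps this one, shifted by a base. A match describes the letters of the window and is not a measured binding site, and nothing is drawn from promoters without one.

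Levels in lung and adipose tissue were compared within rats, over both groups. Of the 24 members 18 passed an adjusted p of 0.05 and a fold change of 1.5 in limma, 9 higher in lung and 9 higher in adipose tissue, against 54.3% of all probes, 14.9% higher in lung and 39.4% higher in adipose tissue. Each tissue lay on a slide of its own, so tissue and slide cannot be told apart, and the median of all probes was −0.50 on the log2 scale, lung minus adipose tissue, against which the values should be read. Of the 9 higher in adipose tissue, Tnfsf4, Tnfsf11 and Tnfrsf19 were not well above background in either tissue.

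The receptors Tnfrsf14, Tnfrsf17, Tnfrsf18 and Tnfrsf8 had the largest differences in favor of lung. Tnfrsf14 was higher in lung by 3.46 ± 0.42 (SE) on the log2 scale, Tnfrsf17 by 3.31 ± 0.47, Tnfrsf18 by 2.80 ± 0.15 (fold change 6.98) and Tnfrsf8 by 1.72 ± 0.16, each in 8 of 8 rats. On the adipose arrays Tnfrsf17 was well above background on 1 of 8, Tnfrsf14 on 4 and Tnfrsf8 on 5, so the sizes and the order of these 3 differences rest on adipose values near background and no fold is given. The adjusted p in limma was 0.000197 for Tnfrsf14, 0.000488 for Tnfrsf17, 4.89e-06 for Tnfrsf18 and 6.71e-05 for Tnfrsf8. Over the 7 settings tried, the lowest differences were 1.91 for Tnfrsf14, 0.77 for Tnfrsf17 and 0.59 for Tnfrsf8. With normexp background correction and quantile normalization, 8 members in all were called (6 higher in lung and 2 in adipose tissue) against 17.8% of all probes. Smaller values were those of Tnfsf14 at 1.53, Tnfrsf11a at 1.28, Tnfsf10 at 1.03, Tnfrsf1b at 0.80 and Tnfsf13 at 0.60. On the adipose arrays Tnfsf14 was well above background on 2 of 8, Tnfrsf11a on 3 and Tnfsf10 on 6. The T cell markers were measured more often in lung as well: 11 of 14 were well above background on all lung arrays and 3 of 14 on all adipose arrays. Their part in the result was not tested.

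Tnfrsf11b was the member highest in adipose tissue relative to lung, by −2.76 ± 0.27 (SE) on the log2 scale, lung minus adipose tissue (fold change 6.76), lower in lung in 8 of 8 rats, with an adjusted p of 7.89e-05 in limma. Tnfrsf9 followed at −1.61 ± 0.23 (SE), Tnfsf9, its ligand, at −1.45 ± 0.20, Tnfrsf25 at −0.99 ± 0.19, Tnfsf15, its ligand, at −0.79 ± 0.23 and Tnfrsf1a at −0.59 ± 0.11. The value of Tnfrsf1a lies close to the median of all probes, and Tnfrsf1a and Tnfsf15 were called in only 3 of the 7 settings tried, the one used here included. Tnfsf12 was at 4.79 in both tissues, with a difference of 0.01 ± 0.15 (SE), and Tnfrsf13b, Tnfrsf4, Tnfrsf12a, Tnfrsf21 and Tnfsf8 did not pass the threshold either. Among the 12 members well above background on all 16 arrays, 3 were called higher in lung, 5 higher in adipose tissue and 4 not called.

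**Figure D4:**
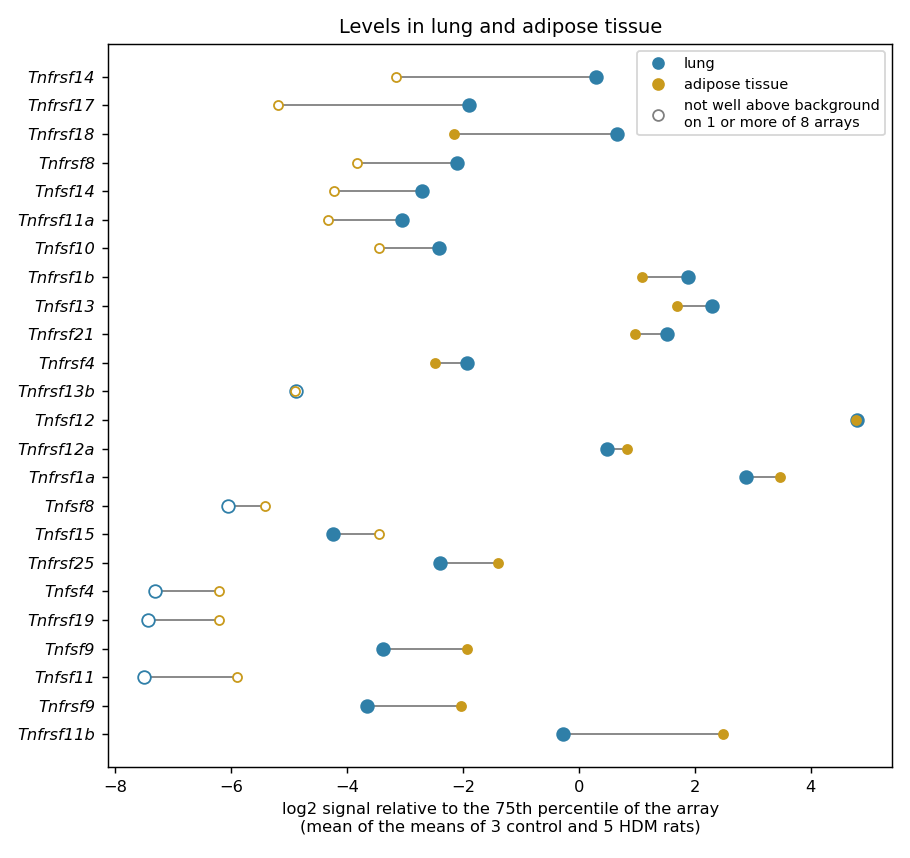
Level of each member in lung (blue) and adipose tissue (yellow), as log2 signal relative to the 75th percentile of the array, each point the mean of the control mean (n = 3) and the HDM mean (n = 5). Open points mark a tissue in which the gene was not well above background on every array, and levels are to be compared within a gene only. Genes are ordered by lung minus adipose tissue, from Tnfrsf14 at 3.46 to Tnfrsf11b at −2.76.

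Ligand and receptor pairs could be followed across both tissues. Tnfsf9 and Tnfrsf9 were both higher in adipose tissue, as were Tnfsf15 and Tnfrsf25, whereas Tnfsf14 and Tnfrsf14 were both higher in lung. Tnfsf15 was called in only 3 of the 7 settings. Tnfsf14 was well above background on 2 of 8 adipose arrays and Tnfrsf14 on 4. Tnfsf13 and Tnfrsf17 were both higher in lung, the receptor near background in adipose tissue. Tnfsf12 and Tnfrsf12a passed the threshold in neither direction. Tnfrsf11a was higher in lung and Tnfrsf11b, the decoy for the same ligand, higher in adipose tissue. Tnfrsf11a was well above background on only 3 of 8 adipose arrays.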

How the data were processed

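The authors extracted the spot intensity of each array with Agilent Feature Extraction 12.0.3.1, background-subtracted and with no normalization between arrays, and deposited it with flags that mark outliers and spots well above background. They also deposited a table of normalized log2 values made in GeneSpring, of which 99.97% of the lung cells and 99.85% of the adipose cells lay within 0.1 of the values used here. No sample column was left unused.

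Control probes and outlier spots were left out, spots of a probe were averaged as log2 intensity, and the 75th percentile of each array was subtracted. HDM and control rats were compared in each tissue by a linear model with moderated variances (limma 3.58.1, R 4.3.3), and the Benjamini–Hochberg adjustment covered all 45598 probes. A probe was called at an adjusted p below 0.05 and a fold change above 1.5. Tissues were compared by limma on the lung minus adipose difference of each rat. An array code shared by both tissues was taken as the rat. Deviations from the group mean correlated between the tissues of a rat from −0.10 to 0.11, so the values themselves do not bear out this pairing. Exact permutation tests used all 56 splits of 8 rats. The fits were tested on simulated data. Figures were drawn with matplotlib in Python. The number of arrays limits the precision, and p-values describe the spread between these rats.

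Symbols came from the RefSeq accession of each probe, and each member has 1 probe. Members called in a tissue are described in full, and where fewer than 6 were called, those with the smallest p up to 6 and the largest change in each direction among members well above background on all arrays. Of pathway lists, called genes are named, or the gene with the smallest p. Ltb in lung has the smallest p of a list without a call. Members named for a single rat, as ligand or receptor partners or by tissue were chosen after their values were seen. The members, lists and tests were chosen with earlier results of these data known.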

Additional observations from a re-analysis of the deposited data

Results flagged for a closer look

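In 7 of 48 groups of 5 HDM rats (24 members in both tissues), 1 rat lay apart from the other 4 by Dixon's test. Chance gives about 1 in 20 for independent groups. These groups share the same 5 rats, so no excess is read from the count. In the lungs, Tnfsf10 was −2.25 in HDM rat 2, against −2.12 to −2.08 in the others, which is still above every control rat. In adipose tissue, HDM rat 1 stood apart for Tnfrsf14 (−1.62, against −4.68 to −4.29), for Tnfrsf4 (−0.16, against −3.26 to −2.59) and for Tnfrsf12a (1.36, against 0.46 to 0.71), and this rat and control rat 1 carried the epididymis and testis markers. HDM rat 2, whose adipose array held 1224 outlier spots, stood apart for Tnfsf8 (−1.08, against −6.30 to −5.20) and for Tnfsf11 (−4.48, against −6.83 to −6.59), the latter not well above background. HDM rat 4 stood apart for Tnfrsf13b (−0.74, against −6.46 to −5.14). The part of the markers and of the outlier spots in these values was not tested.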

How the results depend on the processing

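In the lungs 1 member was called, Tnfrsf11a. The call passed to Tnfrsf12a with median scaling and to Tnfrsf18 with normexp and quantile normalization, and Tnfrsf11a lost its call in 14 of 19 alternatives. The count was 0 with scaling to Gapdh and Hprt1, with the slide row as a block and with the replicate block. These settings called 237, 25 and 0 of all 45598 probes, against 390 in the setting used here. The count of members was also 0 with the methods' t-test adjusted over all probes, which called 341 probes. The count was 4 with dim probes left out, 5 with the adjustment over probes past 1.5-fold, and 0 without any 1 rat. Without any 1 rat, 100 to 333 of all probes were called, so the loss of calls was not particular to the members. The paper counted genes past its fold threshold before those differentially expressed. The adjustment over probes past 1.5-fold, run here with limma, is nearest to that order and called 1329 lung probes. Tnfrsf11a was positive in all 19 alternatives (log2 fold change 0.44 to 1.05, adjusted p 0.00472 to 0.639 in limma or the t-test), as were Tnfrsf18 (0.50 to 0.89), Tnfsf14 (0.46 to 1.09) and Tnfsf10 (0.32 to 0.78), and Tnfrsf12a was negative in all 19 (−0.75 to −0.54). The lowest adjusted p, 0.00472, came from the adjustment over probes past 1.5-fold. Many of the 19 could not change a sign. Settings that alter only the test, the adjustment or the probes tested repeat the same log2 fold change. Leaving out 1 rat cannot reverse groups that do not overlap. In adipose tissue and for the difference between tissues no member was called under any alternative, including without control rat 1 and HDM rat 1, a setting chosen after seeing the data, and Tnfrsf8 lay between −1.33 and −0.20. The ligand median minus the receptor median in adipose tissue ranged from −0.083 to 0.41 without any 1 rat. For levels between tissues, 18 members were called, 8 (6 higher in lung, 2 in adipose tissue) with normexp and quantile normalization, 14 (10 and 4) with quantile normalization alone, and 16 to 19 without any 1 rat. The replicate numbers name different rats, and the deviations of same-numbered rats had correlations from −0.08 to 0.05 (lung) and from 0.10 to 0.59 (adipose tissue), so the numbers were not taken as pairs and the block result is given as a value alone. Averaging the probes of a gene was not run, since each member has 1 probe. Depth is limited by signal over background: 3 members gave no value above it in either tissue.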
